A study of Homo sapiens with 45 samples.

Results

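The machinery that takes a cell through the restriction point of G1 was followed in A375 melanoma cells through 9 genes, chosen by name. They are the D-type cyclins CCND1 and CCND3, the kinases CDK4 and CDK6 that these cyclins activate, the E-type cyclins CCNE1 and CCNE2 with their kinase CDK2, and the kinase inhibitors CDKN1B and CDKN2A. They are 9 of the 19775 genes with a probe set of a single gene name, and they have 23 such probe sets, of which 9 were above noise. For each gene the probe set with the highest mean over all 45 arrays was taken as the main one.

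Mitogenic signals raise D-type cyclins, which bind CDK4 or CDK6 and start the phosphorylation of the retinoblastoma protein RB1. Phosphorylated RB1 releases E2F factors, which in turn drive transcription of CCNE1, CCNE2 and the genes of DNA replication, and cyclin E with CDK2 completes the step. The INK4 inhibitors, CDKN2A (p16) and CDKN2C (p18), bind CDK4 and CDK6, while CDKN1B (p27) restrains cyclin E with CDK2. In melanoma this circuit is best known for loss of CDKN2A, gain of CCND1 and mutation of CDK4, and the ERK pathway that mutant BRAF switches on in A375 cells is an upstream inducer of CCND1.

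Of the 45 arrays, 39 carried RNA of A375 cells, a long-established human melanoma line, taken 48 hours after transfection with a pool of siRNAs against a single gene. Of the other arrays, 3 were of cells given control siRNA and 3 of untreated cells. The siRNA concentration is 100 nM in the sample labels and lower in the methods of the study. Every targeting pool was used in 1 culture and read on 1 array, so a single siRNA has no replicate. The study lists the targeting siRNAs in batches, which hold 9 arrays (KD1), 23 arrays (KD2) and 7 arrays (KD3). The siRNAs against CCND3, CDK4 and CDKN2C act on this circuit directly and all belong to KD2, as do those against RBL2, MAP2K1 and CDC37, while the RB1 and CDK7 siRNAs belong to KD1. A CDK2 siRNA array was not analysed here. For CDKN2C no probe set carries a name here, so its own knockdown was not analysed.

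The deposited values are RMA intensities, used here as log2 values, and the number of arrays limits their precision. A probe set was called above noise at a log2 value of at least 8.59, which is 1.5 times the median of a hybridisation control. By their medians 6 of the 9 genes were above it, and CCNE1, CCNE2 and CDKN2A were below. Control siRNA array 3 and untreated array 3 were near copies of each other, with 100% of probe sets of the untreated array within 10% of the control siRNA value and 95.4% of those of the control siRNA array within 10% of the untreated value, against at most 62.0% in any other pair. Nothing in the labels says that the control siRNA or untreated arrays came from separate cultures, so that the p-values of that comparison measure the spread between these arrays. Of 8 named genes of the melanocyte lineage 3 were above noise by their medians, SOX10 (10.91), S100B (9.87) and MITF (9.01). The other 5 were below, PAX3 (7.82), TYR (5.59), PMEL (5.41), MLANA (4.12) and TYRP1 (3.26), so that none of the pigment enzymes and melanosome proteins of the list was above noise, and none of the 14 named markers of leukocytes, fibroblasts, keratinocytes or endothelium was above noise.

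Promoter sequence is shown for genes whose levels are followed below in the arrays of SP1, MITF and RB1 siRNA, since SP1 binds GC boxes, MITF binds E boxes and RB1 acts through E2F sites. RefSeq start sites (GRCh38.p14) gave 10 windows for 6 of the genes, each with 250 bases before and 50 bases after the start. CCND1, CDK2 and CCNE2 are named only. Capitals mark GC boxes (GGGCGG) and E boxes (CACGTG), read 5′ to 3′ on the strand of the gene with matches on both strands, and the motifs do not overlap in these windows.
CCNE1, chr19:29811741-29812040, plus strand: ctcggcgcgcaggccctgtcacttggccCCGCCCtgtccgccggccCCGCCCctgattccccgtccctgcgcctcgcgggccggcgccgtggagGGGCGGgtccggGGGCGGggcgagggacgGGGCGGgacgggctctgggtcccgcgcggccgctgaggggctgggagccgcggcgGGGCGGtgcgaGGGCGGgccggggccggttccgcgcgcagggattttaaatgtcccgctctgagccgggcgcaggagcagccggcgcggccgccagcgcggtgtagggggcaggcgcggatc
CDK4, chr12:57752261-57752560, minus strand: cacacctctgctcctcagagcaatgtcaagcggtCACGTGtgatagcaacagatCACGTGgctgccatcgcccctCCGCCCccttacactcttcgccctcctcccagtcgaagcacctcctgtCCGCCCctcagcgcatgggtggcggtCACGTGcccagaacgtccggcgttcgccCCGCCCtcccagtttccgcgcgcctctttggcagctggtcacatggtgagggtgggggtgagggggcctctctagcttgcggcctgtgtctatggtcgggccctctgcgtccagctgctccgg
CCND3, chr6:41941759-41942058, minus strand: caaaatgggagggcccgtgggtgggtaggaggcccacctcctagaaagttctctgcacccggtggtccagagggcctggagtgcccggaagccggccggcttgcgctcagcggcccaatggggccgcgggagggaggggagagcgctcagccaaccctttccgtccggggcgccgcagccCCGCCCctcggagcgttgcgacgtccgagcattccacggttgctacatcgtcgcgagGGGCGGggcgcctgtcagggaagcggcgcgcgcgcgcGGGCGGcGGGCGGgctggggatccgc
CDKN1B, chr12:12717118-12717417, plus strand: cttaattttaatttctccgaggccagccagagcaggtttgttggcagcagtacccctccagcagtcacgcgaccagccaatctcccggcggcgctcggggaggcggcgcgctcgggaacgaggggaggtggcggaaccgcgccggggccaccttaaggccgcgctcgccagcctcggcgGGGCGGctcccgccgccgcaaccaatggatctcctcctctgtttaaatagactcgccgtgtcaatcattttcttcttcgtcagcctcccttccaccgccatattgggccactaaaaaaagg
The CCNE1 window holds 7 GC boxes, a number reached by 1.5% of the 35116 windows searched. The CDK4 window holds 3 GC boxes and 3 E boxes, against 15.8% of windows with at least 3 GC boxes and 0.094% with at least 3 E boxes. The CCND3 window shown holds 4 GC boxes (at least 4 in 9.06% of windows), and that of CDKN1B holds 1. Over the 10 windows, 7 had a GC box, against 45% of all windows, and 2 had an E box (CDK4 and CDK6), against 7.26%. An E2F core, searched on both strands as TTGGCGC and also as TTGCCGC and also as TTCGCGC and also as TTCCCGC, was in none of the 10, against 13% of all windows, which says only that these letters are not in these windows. A match is a description of the sequence and not a site.

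CDK4 had the brightest main probe set, with a mean log2 value of 12.02 over the 45 arrays, followed by CCND1 (10.32), CDK6 (10.23), CDKN1B (9.88), CDK2 (9.56), CCND3 (8.76), CCNE1 (8.27), CCNE2 (8.22) and CDKN2A (6.18). Probe sets bind their targets with different strength, so this order is one of signal and not of transcript number. How far each gene moved across siRNAs was read from the SD of its 39 values after centring on the batch medians. The SD was 0.336 for CCNE2, larger than in 98.9% of all genes, 0.255 for CCND1 (95.3%), 0.235 for CDK6 (92.8%) and 0.229 for CDK2 (91.6%). It was 0.202 for CDKN1B, 0.196 for CCNE1 and 0.144 for CDKN2A. The median was 0.156 over all genes and 0.121 over the 4800 genes above noise. For CDK4 and CCND3 the SD depended on the array of their own siRNA. With that array left out, the SD of CDK4 was 0.0847, larger than in 3.36% of all genes, and that of CCND3 was 0.127 (23.1%). Set against the genes above noise, CDK4 was below their median and CCND3 just above it.

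**Figure D1:**
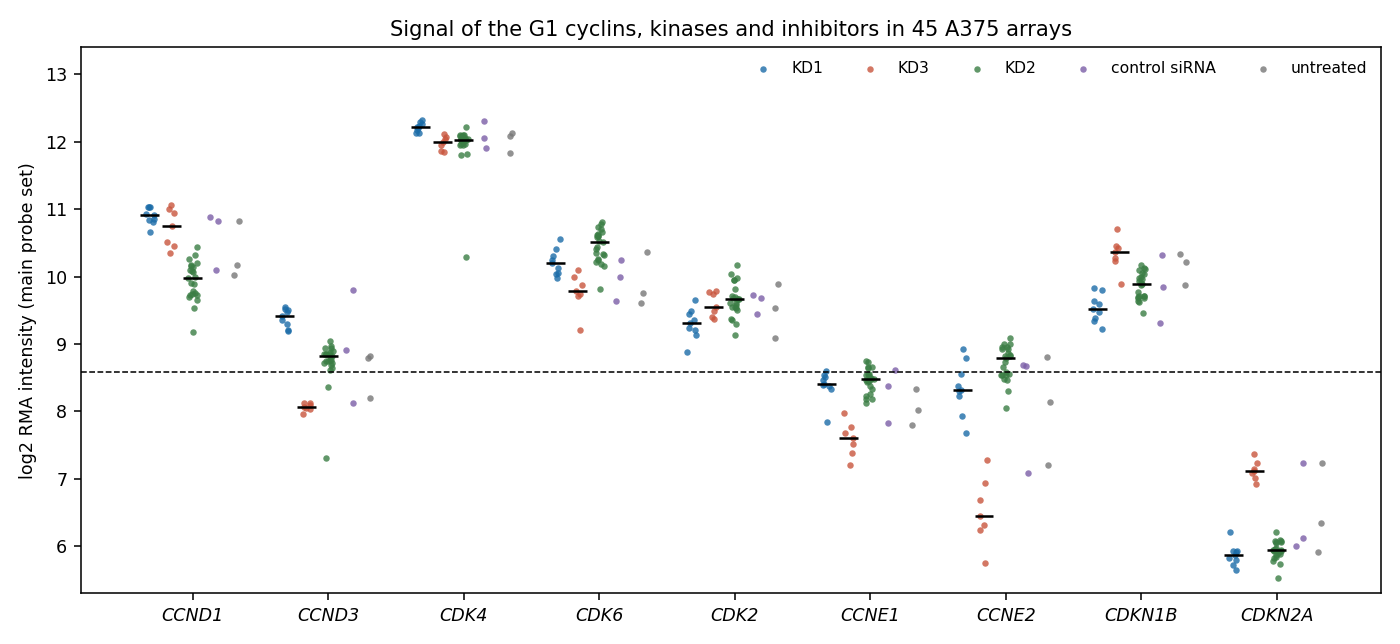
Log2 RMA intensity of the main probe set of each gene (vertical axis), with 1 point per array, by batch KD1, KD3 and KD2 of the targeting siRNAs and for control siRNA and untreated arrays. Bars are batch medians and the dashed line is the noise limit of 8.59. CCNE2 and CCNE1 are lowest and CDKN2A highest in KD3, and single low points mark the CCND3 and CDK4 siRNA arrays.

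The direct perturbations were read first in their own targets. CCND3, the D-type cyclin with the steadier mRNA, had a log2 value of 7.31 in the CCND3 siRNA array, against a KD2 median of 8.82, and the lowest of the other KD2 arrays was at 8.36. The difference of -1.51 leaves 35.1% of the median, and the SD of the other KD2 arrays was 0.144. CDK4 was at 10.28 in the CDK4 siRNA array, against a KD2 median of 12.03, with the next lowest array at 11.81. The difference of -1.75 leaves 29.7%, and the SD of the other arrays was 0.0902. Each target was the lowest of 23 arrays. The exact rank test gives a one-sided p of 0.0435, the smallest that 23 arrays allow. By the study's account, siRNAs were selected that could lower their target mRNA at least 2-fold. A low place was therefore largely fixed in advance, and this p is no separate evidence of knockdown. The second CCND3 probe set lay far below noise (mean 5.18) and read 0.11 above its median in that array.

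**Figure D2:**
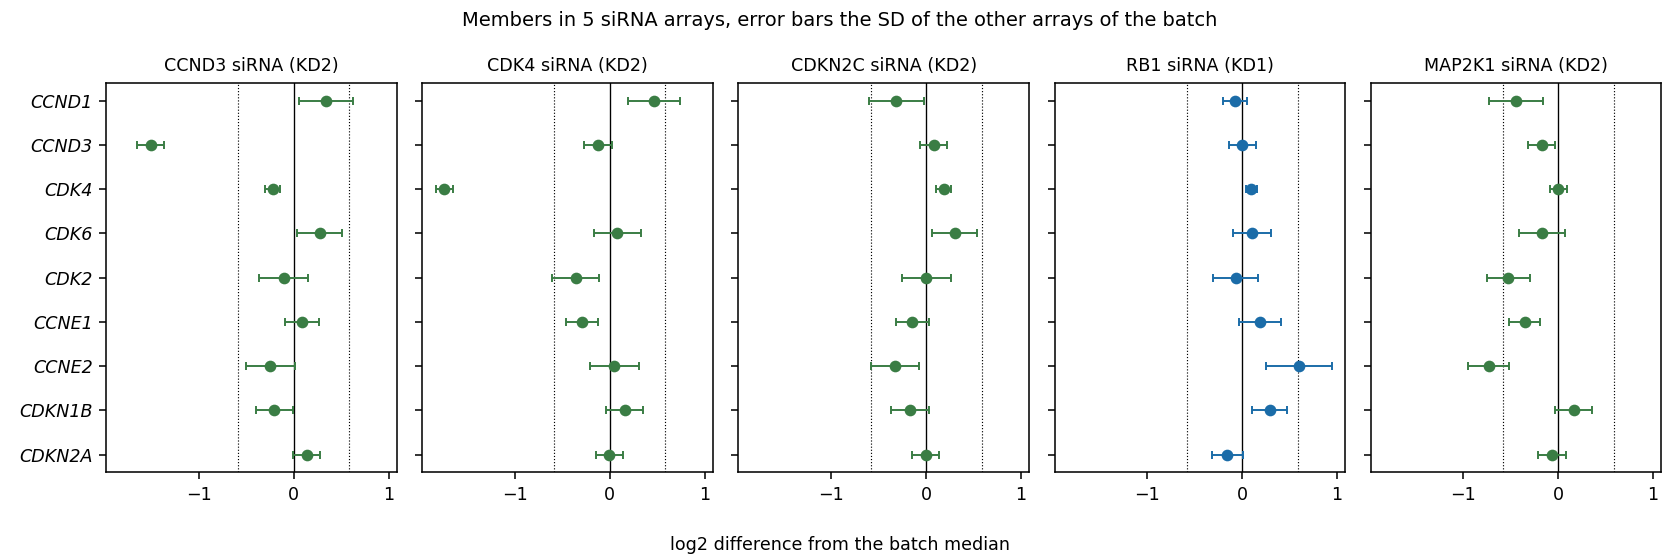
Log2 difference from the batch median (horizontal axis) of the 9 genes in the arrays of 5 siRNAs, with error bars the SD of the other arrays of the batch, the own siRNA array of a gene left out. Dotted lines mark 1.5-fold. CCND3 and CDK4 fall past 1.5-fold with their own siRNA. By its main probe set, CCNE2 lies past 1.5-fold lower with MAP2K1 siRNA and past 1.5-fold higher with RB1 siRNA.

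CCND1, the other D-type cyclin, was at 10.43 in the CDK4 siRNA array and 10.31 in the CCND3 siRNA array, against a KD2 median of 9.97 and KD2 values between 9.17 and 10.43. These differences of 0.46 (SD of the other arrays 0.275) and 0.34 (SD 0.285) are the highest and the next highest of its 39 centred values. In the CDKN2C siRNA array it was at 9.66, a difference of -0.32 (SD 0.291). The second CCND1 probe set, below noise by its mean of 8.22, read 0.23 in the CDK4 siRNA array but -0.18 in the CCND3 siRNA array, so that the direction in the CCND3 siRNA array rests on the main probe set. Against the control siRNA mean instead of the batch median, CCND1 was at -0.17 in the CDK4 siRNA array and -0.29 in the CCND3 siRNA array, so both turned direction. That mean is taken over arrays whose batch is not given.

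The other genes of the circuit stayed within 1.5-fold in these 3 arrays. With CCND3 siRNA, CDK4 was at 11.81, which is -0.22 from its median and the second lowest of KD2 (SD of the other arrays 0.0785), while CDK6 was at 10.78 (0.27, SD 0.237). CCNE2 and CDKN1B were at -0.25 and -0.21. With CDK4 siRNA, CDK2 was at 9.30 (-0.36, SD 0.244) and CCNE1 at 8.18 (-0.29, SD 0.170), each the second lowest of 23, while CCNE2 was at 0.05 and CDK6 at 0.08. With CDKN2C siRNA, the INK4 targets themselves were the highest of KD2 by their main probe sets. CDK4 was at 12.22, a difference of 0.19 (SD 0.0808), and CDK6 at 10.81, a difference of 0.30 (SD 0.235). Another CDK6 probe set above noise was instead highest with CCND3 siRNA (0.43), also an array of KD2. CCNE2 was at -0.33 and CCNE1 at -0.14 in the CDKN2C siRNA array. CDKN2A stayed between -0.01 and 0.14 in the 3 arrays. Of the 8 other genes, 4 were below and 4 above their median with CCND3 siRNA and likewise with CDK4 siRNA, with medians of -0.01 and 0.02, against 0.00 over all genes in both.

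Across the 39 arrays, 10 of the 351 values lay past 1.5-fold from the batch median, 8 lower and 2 higher, and 2 of the lower ones are the siRNA targets just described. That left 6 lower and 2 higher of 349. Over all genes 0.303% of values were past 1.5-fold lower and 0.326% higher, and among the genes above noise the shares were 0.27% and 0.116%. Of the 8 values, 5 belong to CCNE2, 2 to CDK6 and 1 to CCND1. No value of CDK2, CCNE1, CDKN1B or CDKN2A was past 1.5-fold, nor was any of CCND3 or CDK4 outside the array of its own siRNA. These values come from 1 array each and have no test.

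**Figure D3:**
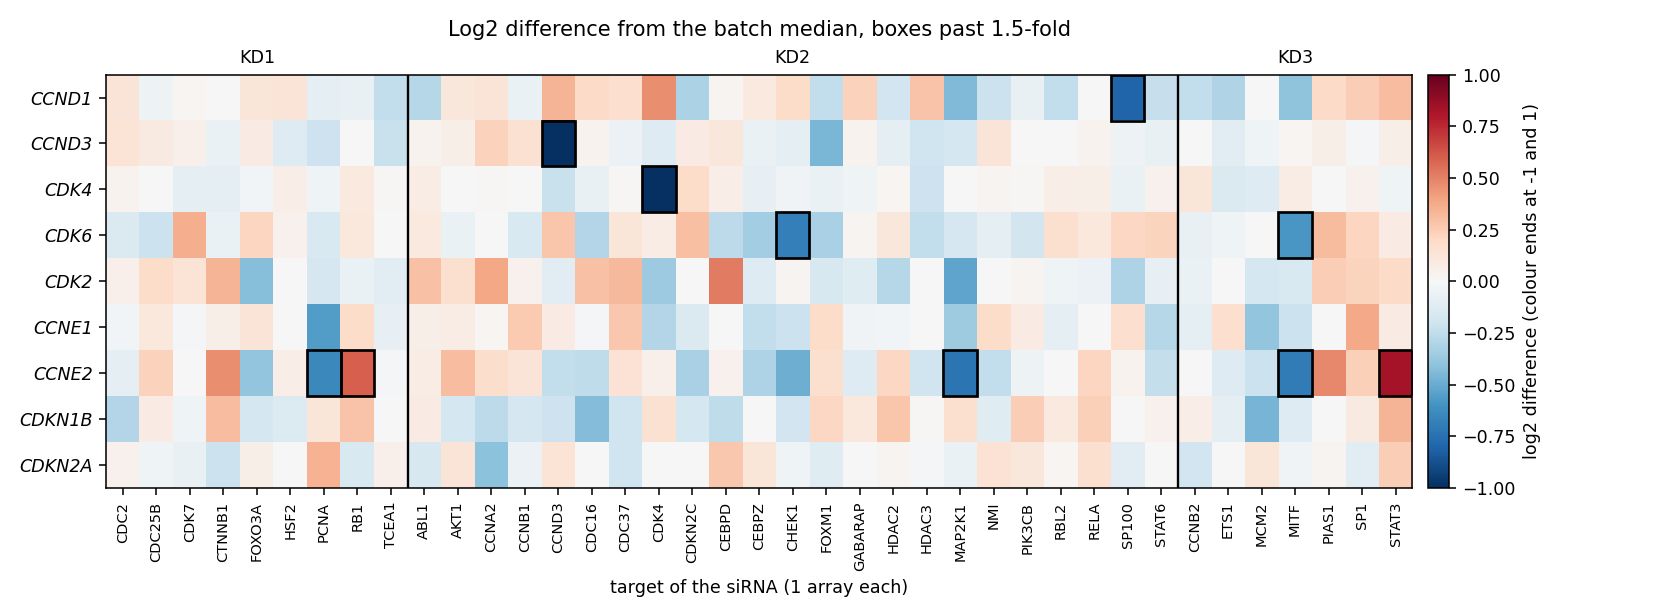
Log2 difference from the batch median for the 9 genes (rows) in the 39 arrays (columns, named by the siRNA target and grouped by batch). Boxes mark the 10 values past 1.5-fold, of which 5 are in the row of CCNE2.

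CCND1 varied most with SP100 siRNA, which targets a component of PML nuclear bodies. There it was at 9.17, against a KD2 median of 9.97, a 1.74-fold difference (log2 -0.80, SD of the other arrays 0.244). Its next lowest values were with siRNA against the ERK-activating kinase MAP2K1 (-0.44, SD 0.283) and against the melanocyte factor MITF (-0.40, SD 0.259). STAT3 siRNA gave its highest value outside these partners (0.31). The second probe set of CCND1 was lowest elsewhere, at -1.05 with siRNA against the elongation factor TCEA1, where the main one was at -0.24. For CCND3 the lowest values after its own siRNA were -0.45 with siRNA against FOXM1, a transcription factor of the G2/M genes (SD 0.110), and -0.22 with TCEA1 siRNA. Its highest were with siRNA against the cyclins CCNA2 (0.23) and CCNB1 (0.15) and the kinase CDC2 (0.13), all 3 proteins of S phase and mitosis. CDK4 kept between -0.22 and 0.19 in the 38 other arrays, with HDAC3 siRNA next to its low end (-0.21) and CCNB2 (0.12) and RB1 (0.10) siRNA after CDKN2C siRNA at its high end.

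CDK6 was lowest with siRNA against the checkpoint kinase CHEK1, at 9.82 against a KD2 median of 10.51 (1.61-fold, log2 -0.68, SD 0.203). In the same array CDKN1A, the p21 inhibitor that p53 induces, was at 2.08. MITF siRNA gave 9.20 for CDK6 against a KD3 median of 9.78, a difference of -0.59 (SD 0.155), just past 1.5-fold on the unrounded value (log2 limit 0.58), and just outside lay the CCNE1 value with PCNA siRNA (1.48-fold). CEBPZ siRNA gave -0.35. The highest value was with siRNA against CDK7, the kinase that activates other cyclin-dependent kinases, at 10.56 against 10.20 (0.36, SD 0.146), followed by PIAS1 siRNA (0.32). The probe sets of CDK6 were not alike. The second brightest (rho of 0.879 with the main one over the 39 arrays) was lowest at -1.24 with FOXM1 siRNA, where the main one was at -0.32, and the next (rho 0.919) was lowest with MITF siRNA (-0.80).

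CCNE2 had the widest range. With siRNA against MAP2K1 it was at 8.05, against a KD2 median of 8.79 (1.66-fold, log2 -0.73, SD 0.218). With MITF siRNA it was at 5.75, against a KD3 median of 6.45 (1.62-fold, -0.70, SD 0.401), and with siRNA against the replication clamp PCNA at 7.68, against a KD1 median of 8.32 (1.56-fold, -0.64, SD 0.318). Each was the lowest array of its batch. At the other end, CCNE2 was at 7.28 with STAT3 siRNA, against 6.45 in KD3 (1.78-fold, 0.84, SD 0.405), and at 8.92 with RB1 siRNA, against 8.32 in KD1 (1.52-fold, 0.60, SD 0.345). Set against the median of all 39 arrays the STAT3 value turned to -1.26, because CCNE2 was low throughout KD3. The second CCNE2 probe set (rho 0.777 with the main one) was also lowest with MAP2K1 siRNA (-0.87) and was highest with PIAS1 siRNA (0.32). It was past 1.5-fold higher in no array. The higher values past 1.5-fold with STAT3 and RB1 siRNA therefore rest on the main probe set, which is below noise by its median. In the 3 arrays where CCNE2 was lowest, CCNE1 was at -0.36 with MAP2K1, -0.21 with MITF and -0.56 with PCNA siRNA (7.85 against a KD1 median of 8.41, SD 0.0914).

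CCNE1 was lowest with PCNA siRNA and next lowest with siRNA against MCM2, a subunit of the replicative helicase (-0.40). It was highest with SP1 siRNA, at 7.98 against a KD3 median of 7.60 (0.38, SD 0.206), and both values are below noise. SP1 is the factor whose boxes are in the CCNE1 window shown. The same 7.98 lies below the control siRNA mean of 8.27, taken over arrays whose batch is not given, so the direction depends on the reference. With MITF siRNA, CDK4, whose window holds 3 E boxes, was at 12.07, a difference of 0.08 (SD 0.101, place 6 of 7 from the lowest). CDK6, with 1 E box in a window not shown, was at -0.59 in that array, the lowest of 7. CCND3 was at 0.02 and CDKN1B at -0.13. A role of the GC boxes or of the E boxes was not tested. With SP1 siRNA, CDK4 was at 0.04, CDKN1B at 0.09 and CCND3 at -0.02, and 7 of the 9 genes were above their median, where 8777 of all 19775 genes were above and 8287 below. CDC37 siRNA, against the HSP90 co-chaperone that loads CDK4 and other kinases, gave the second highest value of CCNE1 (0.27), and CDK4 mRNA was at 0.01 there. CDK2 was lowest with MAP2K1 siRNA (9.13 against 9.66, -0.53, SD 0.229), then with siRNA against FOXO3A, a factor that induces CDKN1B (-0.43). It was highest with siRNA against the transcription factor CEBPD (0.52), CCNA2 (0.38) and the adhesion and Wnt protein CTNNB1 (0.34). CCNA2 is the other main cyclin partner of CDK2.

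**Figure D4:**
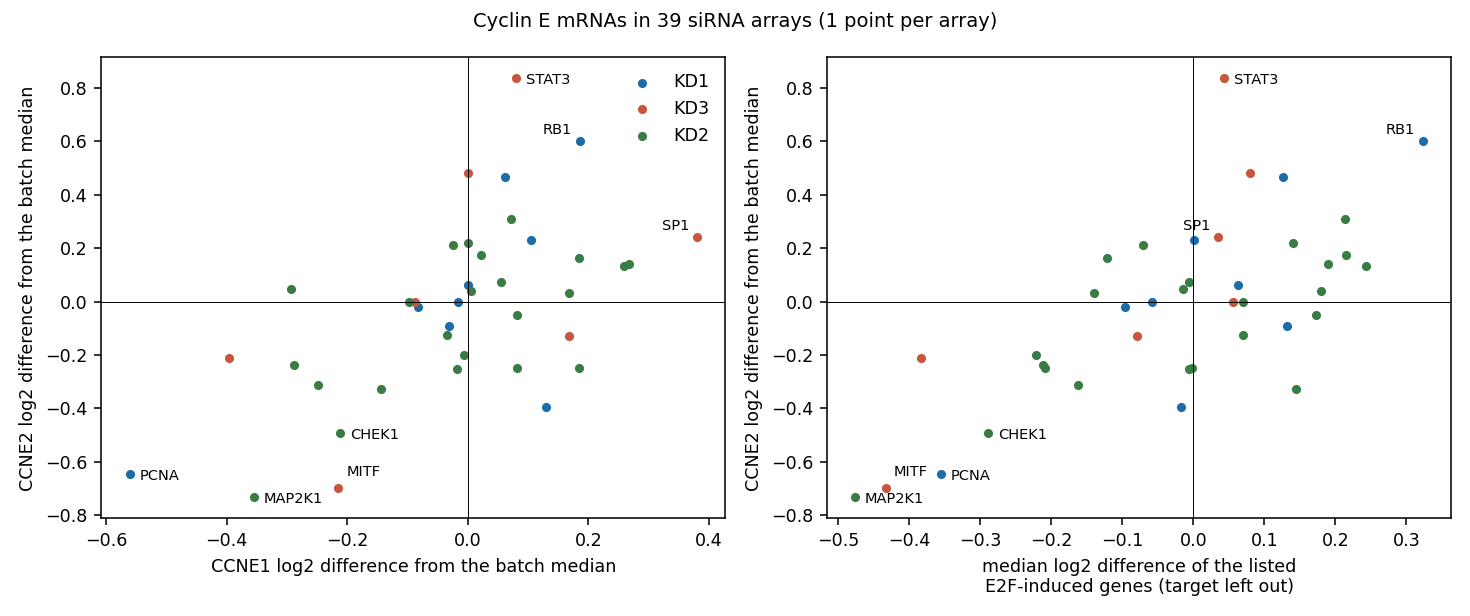
CCNE2 log2 difference from the batch median in each of 39 arrays (vertical axes) against that of CCNE1 (left) and against the median of 14 listed E2F-induced genes, the siRNA target left out (right), coloured by batch. For CCNE2, MAP2K1, MITF and PCNA siRNA are the lowest arrays (-0.73, -0.70 and -0.64) and STAT3 and RB1 siRNA the highest (0.84 and 0.60), with CCNE1 at 0.08 in the STAT3 siRNA array.

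CDKN1B, the p27 inhibitor, was lowest with MCM2 siRNA (-0.47), with siRNA against CDC16, a subunit of the anaphase-promoting complex (-0.43), and with CDC2 siRNA (-0.29). Its highest values were with STAT3 (10.70 against a KD3 median of 10.36, 0.34), CTNNB1 (0.31) and RB1 siRNA (9.80 against a KD1 median of 9.51, 0.29). With FOXO3A siRNA it was at -0.17. CDKN2A was below noise in all 45 arrays. Its main probe set carries the suffix of probe sets with probes shared by other transcripts, and its rho with the other CDKN2A probe sets was -0.0117 and 0.333. It was lowest with CCNA2 siRNA (-0.41) and highest with PCNA siRNA (0.35).

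Other siRNAs of the set act on RB1 itself or upstream of the circuit. In the RB1 siRNA array CCNE2 (0.60), CCNE1 (0.19) and CDK4 (0.10) were the highest of the 9 KD1 arrays, and CCND3 was at 0.00, CCND1 at -0.07 and CDKN2A at -0.16. Of 14 measured genes that E2F induces at G1/S, 13 were above their median (median 0.32, with CDT1 at 0.61, the loading factor of the replicative helicase). With siRNA against the RB1 relative RBL2, CCNE2 was at 0.00 and CCNE1 at -0.10, and all 14 E2F-induced genes were above their median by little (median 0.07). Such counts were not particular to RB1 and RBL2 siRNA. All or all but 1 of the list were above in 8 of the 39 arrays. Among these were CCNB1 (median 0.24), CEBPD (0.18) and RELA siRNA (0.14). With MAP2K1 siRNA, CDK2, CCNE1 and CCNE2 were the lowest of the 23 KD2 arrays and CCND1 the second lowest, while CDK4 was at 0.00 and CDKN1B at 0.16. In that array 7 of the 9 genes were below their median and 1 above, with a median of -0.18 against 0.00 over all genes. All 14 E2F-induced genes were lower there, with a median of -0.48, and the 4 past 1.5-fold (1.03% of all genes were that much lower there) were MCM10 (-0.85), DTL (-0.81), RRM2 (-0.71) and CDC45 (-0.68), which act in DNA replication and nucleotide supply. Of 11 ERK output genes 10 were lower (median -0.19), with EGR1 at -0.73 and FOSL1 at -0.60, where 9354 of all 19775 genes were lower and 9666 higher. The ERK list was also lower in 11 of 11 genes with SP100 siRNA (median -0.12). With STAT6 (median -0.15) and RBL2 siRNA (median -0.14) it was lower in 10 of 11. The E2F-induced list was also low in the other arrays named for cyclin E. It was below the median in 14 of 14 genes with MITF siRNA (median -0.43), in 14 of 14 with MCM2 siRNA (median -0.38) and in all 13 genes other than the target with PCNA siRNA (median -0.35), with 2, 2 and 5 of them past 1.5-fold lower, where 0.475%, 0.248% and 0.769% of all genes were.

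The E2F-induced list was then read in the direct perturbations. All 14 were below their median with CCND3 siRNA (median -0.21), 7 were below and 6 above with CDK4 siRNA (median -0.01), and 1 was below and 11 above with CDKN2C siRNA (median 0.14). None was past 1.5-fold in the 3 arrays, and genes of this list vary together, so the counts are not independent. The whole list lay below its medians in 8 of the 39 arrays, with medians of -0.22 with HDAC3, -0.21 with STAT6 and -0.16 with CEBPZ siRNA, close to that with CCND3 siRNA. In the CCND3 siRNA array 2989 of the 4800 genes above noise were below their median (median -0.03). CDC37 siRNA had 13 of the 14 above their median (median 0.19) and CDK7 siRNA 10 below (median -0.06). Among 25 other regulators of the G1/S step (24 where the siRNA targets one of them) none was past 1.5-fold in the arrays of CCND3, CDK4, CDKN2C, RB1, RBL2, MAP2K1, CDC37 or CDK7 siRNA, and their medians there lay between -0.11 (MAP2K1) and 0.07 (CDC37). STAT3 siRNA had 8 of the 9 genes above their median and 1 below (median 0.19), where 8025 of all 19775 genes were above and 8833 below (median 0.00).

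The batches themselves were compared next. Between KD1 and KD2, 7 of the 9 main probe sets passed an adjusted p of 0.05 in limma, 3 higher and 4 lower in KD1, where 44.5% of the 54675 probe sets passed. Between KD3 and KD2, 7 passed, 3 higher and 4 lower in KD3, where 41.8% of all probe sets passed. Over all probe sets 22.5% were higher and 22% lower in KD1, and 19.8% higher and 22% lower in KD3. With only probe sets above noise tested, 6 of 6 genes passed for KD1, where 71.3% of the probe sets passed. For KD3 it was 4 of 6 genes and 76.5% of the probe sets. The batches carry different siRNAs, so batch and target cannot be told apart array by array.

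Among the cyclins, CCND1 lay between 10.67 and 11.04 in KD1 (median 10.91) and between 10.35 and 11.06 in KD3 (median 10.75), against 9.17 to 10.43 in KD2 (median 9.97). KD1 and KD2 did not overlap. The difference was 0.97 ± 0.10 (SE, adjusted p = 2.43e-11) for KD1 and 0.79 ± 0.11 for KD3 (adjusted p = 2.45e-08). CCND3 was higher in KD1 by 0.66 ± 0.10 (adjusted p = 5.57e-07) and lower in KD3 by a log2 difference of -0.67 ± 0.11 (adjusted p = 2.24e-06), and all 7 KD3 arrays, between 7.96 and 8.13, were below noise. The KD2 mean of CCND3 in this fit, 8.73, includes its own siRNA array (7.31), against a KD2 median of 8.82. CCNE2 lay between 5.75 and 7.28 in KD3 (median 6.45), against 8.05 to 9.10 in KD2 (median 8.79). No KD3 array reached the lowest KD2 array, and the difference was -2.19 ± 0.14 (adjusted p = 4.09e-18). Its second probe set gave -1.97. CCNE1 lay between 7.20 and 7.98 in KD3, against 8.12 to 8.74 in KD2, again with no overlap (-0.87 ± 0.08, adjusted p = 3.68e-12). The share of all probe sets without overlap between batches was not counted, so these separations are not shown to be particular to CCND1, CCNE2 and CCNE1. In KD1 CCNE2 was lower by a smaller margin (-0.37, adjusted p = 0.0129), and CCNE1 did not pass (-0.07, adjusted p = 0.470).

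Among the kinases, CDK4 was higher in KD1 by 0.27 (adjusted p = 0.0388) and did not pass in KD3 (0.04, adjusted p = 0.832). Its values lay between 12.13 and 12.32 in KD1 and between 11.85 and 12.11 in KD3, against a median of 12.03 in KD2. The KD2 mean used in the fit, 11.95, is lowered by the CDK4 siRNA array (10.28), so part of the KD1 difference is the knockdown itself. With the arrays of RB1, RBL2, MAP2K1 and MITF siRNA left out the KD1 difference was the same 0.27 but the adjusted p was 0.0661. CDK6 was lower in KD3 (-0.69, adjusted p = 1.01e-07) and in KD1 (-0.24, adjusted p = 0.0233), and the KD1 call was lost without the CCND3, CDK4 and CDKN2C siRNA arrays (-0.20, adjusted p = 0.0595). The 3 bright CDK6 probe sets were all lower in KD3, whereas the 4 below noise were all higher there. CDK2 was lower in KD1 (-0.35, adjusted p = 0.000881), with values between 8.88 and 9.65 against 9.13 to 10.18 in KD2, and did not pass in KD3 (-0.07, adjusted p = 0.611).

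Among the inhibitors, CDKN1B was lower in KD1 (-0.33, adjusted p = 0.00056) and higher in KD3 (0.48, adjusted p = 8.83e-06), with medians of 9.51 in KD1, 10.36 in KD3 and 9.88 in KD2. CDKN2A lay between 6.92 and 7.36 in KD3, against 5.53 to 6.21 in KD2, a difference of 1.19 ± 0.06 (adjusted p = 3.29e-20) with all values below noise. Of the dimmer CDKN2A probe sets one gave 1.09 and the other 0.04 (adjusted p = 0.670). All 14 E2F-induced genes were also lower in KD3, with a median of -0.63 against -0.02 over all probe sets. PCNA was at -1.71 and MCM10 at -1.13. Of the 25 other G1/S regulators 8 were lower and 6 higher in KD3, with the E2F partner TFDP1 at -1.13.

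No gene of the circuit differed between control siRNA and untreated cells by limma, where 0 of 54675 probe sets passed (0% of all) and 97 had an unadjusted p under 0.05. CCND1 was at 10.89, 10.10 and 10.83 in the control siRNA arrays 1 to 3, against 10.17, 10.03 and 10.82 in the untreated arrays. CCND3 was at 9.80, 8.92 and 8.13 with control siRNA, against 8.79, 8.83 and 8.20 in untreated cells. The groups overlap for both. By array number the differences for CCND1 were 0.72, 0.07 and 0.01, and for CCND3 they were 1.01, 0.09 and -0.07, so that the pair numbered 1 differed most. CDK4 was at 12.31, 12.05 and 11.90 with control siRNA, against 12.12, 12.09 and 11.83 in untreated cells. CDK6 was at 9.99, 10.24 and 9.64, against 9.75, 10.36 and 9.60 in untreated cells, and CDK2 was at 9.45, 9.72 and 9.68, against 9.09, 9.89 and 9.53. All 3 kinases overlapped between the groups. CCNE1 was at 8.61, 8.38 and 7.82 with control siRNA, against 8.02, 8.34 and 7.79 in untreated cells, and CCNE2 was at 8.69, 8.67 and 7.09, against 8.14, 8.80 and 7.21. CDKN1B was at 9.31, 9.84 and 10.32 with control siRNA, against 10.22, 9.87 and 10.34 in untreated cells, and CDKN2A was at 6.00, 6.12 and 7.23, against 6.35, 5.91 and 7.24. In all 3 numbered pairs CCND1 and CCNE1 were higher with control siRNA (CCNE1 by 0.59, 0.04 and 0.03) and CDKN1B lower (-0.91, -0.03 and -0.02), and the other 6 genes differed in sign between pairs. The share of all genes with the same sign in all pairs was not counted, so this is not shown to be particular to these genes. The pair numbered 3 is the near-copy pair, and the pair numbered 1 holds most of each difference. The differences ran between -0.32 ± 0.27 (SE) for CDKN1B and 0.34 ± 0.41 for CCND3 and none passed. Without the near-copy pair numbered 3 again 0 probe sets passed (1135 at an unadjusted p under 0.05), and with the array number as a block also 0 (1643 unadjusted), with 0.27 ± 0.15 (SE) for CCND1, 0.22 ± 0.13 for CCNE1 and -0.32 ± 0.18 for CDKN1B (adjusted p = 0.874 each). Arrays numbered 3 hold the lowest CCNE2 and the highest CDKN2A of both groups, and the batch of these 6 arrays is not given.

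Finally, the genes were followed together over the 39 centred arrays. Spearman's rho was taken for each of the 9 with the 4800 genes above noise and with one another, 43182 pairs in all, with 100000 permutations within batches and Benjamini-Hochberg adjustment over all pairs. Of these, 1112 pairs passed an adjusted p of 0.05 (2.58%). Among the 36 pairs within the circuit 1 passed and 8 had an unadjusted p under 0.05. The arrays share a platform, a cell line and a batch within each centring group.

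The pair that passed was CCNE1 with CCNE2, at rho = 0.541 (permutation p = 0.0008, adjusted p = 0.0386) and r = 0.578 (permutation p = 0.00019). Without the MCM2 and PCNA siRNA arrays, farthest from the CCNE1 median, r was 0.520, and within KD1, KD2 and KD3 rho was 0.617, 0.484 and 0.571. The call was lost in KD2 alone (adjusted p = 0.282) and when all genes entered the adjustment (adjusted p = 0.0855), and over the alternatives the adjusted p lay between 0.000146 and 0.282. CCND3 with CDK2 came next, at rho = 0.506 (permutation p = 0.00139, adjusted p = 0.0518), with r = 0.278 (permutation p = 0.123) over all 39 arrays and 0.465 without the FOXM1 and CCND3 siRNA arrays. CDK2 had rho = 0.460 with CCNE2 (permutation p = 0.00421, adjusted p = 0.0888) and 0.384 with CCNE1 (permutation p = 0.0193, adjusted p = 0.192), the cyclins that activate it. CCND1 and CDK4, the partners at the entry of the circuit, did not pass (rho = -0.401, permutation p = 0.018, adjusted p = 0.186), with -0.595 within KD2, 0.10 within KD1 and -0.143 within KD3. Without the CCND3, CDK4 and CDKN2C siRNA arrays rho was -0.252 (permutation p = 0.171).

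**Figure D5:**
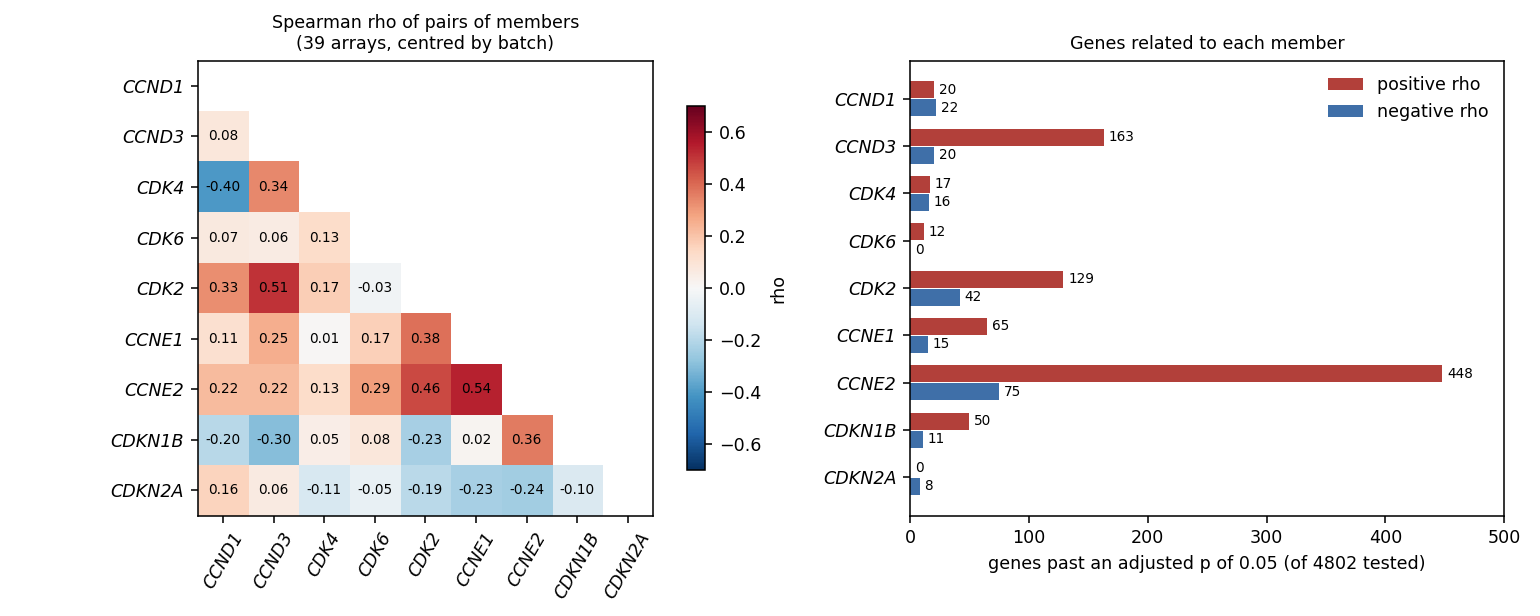
Left, Spearman's rho for the 36 pairs of the 9 genes over 39 arrays centred by batch, with CCNE1 and CCNE2 highest at 0.54. Right, the number of genes of 4802 tested per member that passed an adjusted p of 0.05, by the sign of rho, with 448 positive and 75 negative for CCNE2 and 0 positive and 8 negative for CDKN2A.

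CCNE2 was related to the most genes, 448 with positive and 75 with negative rho of 4802 tested (10.9%). Its closest was DBF4, the activating subunit of the replication kinase CDC7, at rho = 0.815 and r = 0.774 (permutation p = 1e-05 for both, the smallest that 100000 permutations can give, adjusted p = 0.00379). Without the MAP2K1 and STAT3 siRNA arrays r was 0.728, and rho was 0.783, 0.747 and 0.893 within KD1, KD2 and KD3. HTATSF1 and the importin KPNA4 followed, both at 0.808, and the vault protein MVP was the most opposed (-0.746).

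CCND3 had 163 positive and 20 negative relations. The closest was MCM5, a subunit of the replicative helicase, at rho = 0.754 (permutation p = 1e-05, adjusted p = 0.00379) and r = 0.405 (permutation p = 0.00107), or r = 0.697 without the CCND3 and FOXM1 siRNA arrays. Within KD1, KD2 and KD3 rho was 0.933, 0.780 and 0.143. The spliceosome subunit SNRPB (0.748) and UBE2S, a ubiquitin-conjugating enzyme of the anaphase-promoting complex (0.746), came next, and the sulfate transporter SLC26A2 was the most opposed (-0.714). CDK2 had 129 positive and 42 negative relations. STIP1, a co-chaperone of HSP70 and HSP90, led at rho = 0.794 (permutation p = 1e-05, adjusted p = 0.00379) and r = 0.654 (permutation p = 2e-05), with 0.817, 0.768 and 0.964 within KD1, KD2 and KD3 and r = 0.649 without the CEBPD and MAP2K1 siRNA arrays. The abscission protein CEP55 (0.652) and the cap-binding protein NCBP1 (0.649) followed, and SOX2 was the most opposed (-0.652).

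CCNE1 had 65 positive and 15 negative relations, led by the chaperonin subunit CCT4 (rho 0.682), C9orf40 (0.658) and the dynein regulator NDE1 (0.654), with the mitochondrial protein MPV17 at the other end (-0.677). CDKN1B had 50 and 11, led by the kinase PRKD3 (0.680), PRRC1 (0.651) and DLD, the E3 subunit of the pyruvate dehydrogenase complex (0.636), with SDF2L1 of the endoplasmic reticulum opposed (-0.566). For CCND1, 20 were positive and 22 negative. ENC1 (0.619), TFPI2, an inhibitor of proteases (0.617), and the cAMP-responsive factor CREM (0.596) were closest, and EBPL was the most opposed (-0.646). All these pairs passed the adjusted threshold. With the CCND1 probe set of largest SD, which lies below noise, all 4 CCND1 pairs lost their call. The coefficient was then 0.322 for ENC1 (adjusted p = 0.308), 0.488 for TFPI2 (adjusted p = 0.0579), 0.355 for CREM (adjusted p = 0.242) and -0.371 for EBPL (adjusted p = 0.203).

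The remaining genes had few relations. CDK4 had 17 positive and 16 negative, with SYDE1 (0.574), the tubulin TUBA1C (0.571) and EIF4A3 of the exon junction complex (0.567) closest and the phosphate transporter SLC20A1 opposed (-0.666). With Pearson's r, which gives the CDK4 siRNA array its full weight, SYDE1 was at 0.317 (permutation p = 0.0535), and without the CCND3 and CDK4 siRNA arrays at 0.640. By r no named CDK4 pair passed (lowest adjusted p = 0.0701, for EIF4A3). By rho without the CCND3, CDK4 and CDKN2C siRNA arrays, the 3 closest genes lost their call. The adjusted p was then 0.0694 for SYDE1, 0.0922 for TUBA1C and 0.110 for EIF4A3, and SLC20A1 kept its call (-0.604, adjusted p = 0.0197). CDK6 had 12 positive and 0 negative, led by the nuclear pore protein TPR (0.651), THOC2 of the mRNA export complex (0.628) and the cohesin loader NIPBL (0.589). With the CDK6 probe set of largest SD, also below noise, these 3 lost their call, and rho was 0.196 for TPR (adjusted p = 0.636), 0.459 for THOC2 (adjusted p = 0.0939) and 0.406 for NIPBL (adjusted p = 0.164). Its most opposed gene, COX7A2, did not pass (-0.458, adjusted p = 0.0909). CDKN2A, below noise throughout, had 0 positive and 8 negative. The metallothionein genes MT1H (0.466, adjusted p = 0.0860) and MT1HL1 (0.465, adjusted p = 0.0839) and IFRD2 (0.447, adjusted p = 0.102) were closest without passing, and SPRED2, an inhibitor of signalling to ERK, was opposed (-0.602, adjusted p = 0.0116).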

How the data were processed

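Total RNA of A375 cells was hybridised to 45 Affymetrix arrays. The authors normalised the arrays with RMA (version not given in the sources used here), and the deposited values are intensity values on the linear scale, of which the log2 was taken with no further normalisation. RMA fits all arrays together and does not remove batch differences. Groups came from the sample labels and batches from the study's list of targets. Each log2 value was set against the median of its gene in its batch. Of 54675 probe sets, 41097 had 1 gene name, 1801 several and 11777 none in the platform annotation used. Batches, and control siRNA with untreated arrays, were compared in limma 3.58.1 (R 4.3.3), adjusted by Benjamini-Hochberg over all probe sets. Relations used numpy 2.4.6, pandas 2.3.3 and scipy 1.17.1 (Python 3.11.15), and figures matplotlib 3.10.9. Both tests were tried on simulated data.

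Deviations from the group means of same-numbered control siRNA and untreated arrays correlated at 0.580, 0.671 and 0.890, each over 0.1. The numbers were therefore treated as pairs in a fit with a block. The labels state no pairing, the batch of these arrays is not given, and 0.890 is that of the near-copy pair. The fit reported is without the block, and the fit with the array number as a block stands beside it. The study's methods name limma only for published melanoma data and mention no block. The members, lists and motifs were chosen with earlier results of these data known. All 9 genes were named, with their 3 lowest and 3 highest arrays, the 3 genes of highest rho and the 1 of lowest rho, and list genes past 1.5-fold or called. The second probe sets and the arrays described beyond the direct perturbations follow that rule or were added after the values were seen. Alternatives varied the reference, the probe set, the fold, the scaling, the arrays, the block and the correlation. The knockdown of CDKN2C was planned and could not be measured, since no probe set carries its name here.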

Additional observations from a re-analysis of the deposited data

How the results depend on the processing

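The knockdown of CCND3 and CDK4 kept its direction under every reference and scaling tried, and only the dim CCND3 probe set turned the direction (0.11). A change of reference cannot alter the place of an array within its batch, so the place adds no support. The 10 values past 1.5-fold (8 lower, 2 higher) became 81 (46 and 35) against the control siRNA mean, 56 (31 and 25) against the median of all 39 arrays, 18 (13 and 5) with the probe set of largest SD and 2 (2 and 0) at 2-fold, and with the median over probe sets none was higher (0). CCNE2 in the STAT3 siRNA array turned to -0.87 against the control mean and -1.26 against all 39 arrays. The 7 of 9 genes called between KD3 and KD2 became 4 of 6 when only probe sets above noise were tested, since 3 were not tested, and 76.5% of all probe sets tested were called there. With the second probe set 3 directions turned there or in KD1, for CDKN2A in KD1 (0.32), CCND3 (0.084) and CDK2 (0.30) in KD3, and CDK4 in KD3 turned to -0.037 without the CCND3, CDK4 and CDKN2C siRNA arrays. Neither CCND3 nor CDK2 nor CDK4 was called there under that alternative.

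Control siRNA against untreated gave 0 called probe sets with each array left out in turn, 0 with the replicate block, in which same-numbered arrays are paired, and 0 with quantile normalisation or above noise. The CCND3 difference lay between -0.082 (without control siRNA replicate 1) and 0.75 (without control siRNA replicate 3) over these fits. The 1 related pair of members (2.58% of all pairs called) became 2 with Pearson's r (2.98%), 14 of 36 without centring (43%), 0 in KD2 alone (0.963%), 2 with the probe set of largest SD (2.16%) and 0 when all genes entered the adjustment (0.465%). Of 41 named pairs 23 lost their call in KD2 alone. Without centring 8 changed sign, CCND1 with CDK4 (0.193), CCND3 with CDK2 (-0.143) and with SLC26A2 (0.0654), CDK6 with COX7A2 (0.253), CCNE1 with NDE1 (-0.0982), CCNE2 with KPNA4 (-0.270), and CDKN2A with MT1H (-0.320) and with MT1HL1 (-0.407). CDKN2A with IFRD2 turned to -0.0156 with the probe set of largest SD. The causes were not tested. Of 544 alternatives to single-gene values and pairs, 441 kept direction and call or moved by less than the spread, 55 lost their call, 4 gained one, 28 moved further and 16 changed direction. Arrays give no read depth, and signal near or under the noise limit bounds what CCNE1, CCNE2 and CDKN2A can show.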
